A study of Mus musculus with 10 samples.

Results

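The data described here are the jejunal mRNA levels of 31 genes of the antioxidant system that NRF2 governs and of the pentose phosphate enzymes that supply it with NADPH. The genes were taken by symbol from the 45707 rows of the gene table, of which 26289 had a read in at least 1 library, and all 31 symbols were found. Jejunum was taken from 5 controls (Vil-Cre) and from 5 Vil-Cre:NDI1 animals, with 1 RNA-sequencing library per mouse. Vil-Cre mice carry a Villin-driven Cre transgene (B6.Cg-Tg(Vil1-cre)1000Gum/J) that acts in intestinal epithelial cells, and both groups carry it. Vil-Cre:NDI1 mice also hold NDI1, the rotenone-insensitive NADH dehydrogenase of budding yeast, at ROSA26 behind a lox-stop-lox cassette that Cre removes. NDI1 oxidises NADH and passes the electrons to ubiquinone without pumping protons, and the comparison asks whether its presence in the epithelium goes with other levels of the genes that handle oxidants. The mice were littermates, all male and 8 to 12 weeks old, and each was killed 1 h after a gavage of water that followed an overnight fast of 16 to 18 h. Flushed pieces of whole jejunum were used, so Cre acted in the epithelium while the RNA came from every cell layer.

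NRF2, the product of Nfe2l2, is a transcription factor that KEAP1 binds and hands to a ubiquitin ligase. Oxidants and electrophiles modify cysteines of KEAP1, after which NRF2 accumulates, pairs with small MAF proteins and binds antioxidant response elements in front of genes for glutathione synthesis, thioredoxin reduction, quinone reduction and NADPH supply. Peroxides are removed by catalase, by glutathione peroxidases that use glutathione, and by peroxiredoxins that use thioredoxin, and both thiol systems draw on NADPH. Because NRF2 is set mainly through the stability of its protein, mRNA of its target genes is a usual readout of its activity. In the small intestine, epithelial cells meet oxidants and electrophiles from food, bile and microbes, and GPX2 is a peroxidase known from this epithelium.

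The element that NRF2 binds was looked for in front of the genes, since binding to it is how NRF2 reaches its targets. The window was 250 bases before to 50 bases after each start site in RefSeq (GRCm38.p6), and 26 of the 31 genes had at least 1 window. Windows for Prdx6, Sod3, Gclc, Hmox1 and Gsr were not analysed here. The core TGACNNNGC, read on both strands with N for any base, was found in 8 of 26 genes (30.8%), beside 14.0% of 27025 genes with a window. The looser core TGANNNNGC, which includes every match of the first, was found in 14 of 26 (53.8%), beside 45.0%. TGANTCAGC, which was searched after the first matches had been seen and is itself a case of the looser core, was found for 2 genes, Srxn1 and Prdx1, or 7.69% beside 1.37%. Printed are the matches of TGACNNNGC or TGANTCAGC that lay before the start site, in 7 genes, with 10 bases on either side, on the strand that holds the motif and with its letters in capitals:
Srxn1: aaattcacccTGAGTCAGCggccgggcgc
Prdx1: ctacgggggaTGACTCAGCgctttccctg
Nfe2l2: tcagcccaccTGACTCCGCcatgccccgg
Gclm: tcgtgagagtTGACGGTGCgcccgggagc
Txnrd1: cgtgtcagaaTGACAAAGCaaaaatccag
Sod1: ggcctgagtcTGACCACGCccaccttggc
G6pdx: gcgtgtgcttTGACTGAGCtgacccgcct
The printed bases lie at chr2:152105469-152105497 on the plus strand for Srxn1, chr4:116685456-116685484 on the minus strand for Prdx1, chr2:75704885-75704913 on the minus strand for Nfe2l2, chr3:122245413-122245441 on the minus strand for Gclm, chr10:82859104-82859132 on the minus strand for Txnrd1, chr16:90220696-90220724 on the minus strand for Sod1 and chrX:74428919-74428947 on the plus strand for G6pdx. They differ at the central bases of the motif, and Srxn1 and Prdx1 hold the same TCAGC end. These matches describe the letters only, and no binding was measured.

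Library depth ran from 10145705 to 12371530 reads on genes, and values are normalized counts, meaning reads divided by 1 size factor per library (0.852 to 1.10). NDI1 had 1002, 1505, 2659, 1423 and 1287 reads in Vil-Cre:NDI1 mice 1 to 5, against 0 in 4 control libraries and 1 in Vil-Cre 3, so each library matched its label. All 10 enterocyte markers listed were detected, with villin (Vil1) at 35066 to 45369 in Vil-Cre and 41252 to 49248 in Vil-Cre:NDI1 mice. Vil-Cre 5 stood apart with the lowest summed enterocyte markers, 314997 beside 431895 to 610086 in the other 9 mice. It also had more of the B cell markers Cd79a, 315 beside 9.85 to 53.9, and Ms4a1, 236 beside 0 to 7.83. Its summed B and plasma cell markers, 2019, lay within the range of the other mice. The part of these cells in the values below was not tested. Hepatocyte markers were higher in 4 of 5 Vil-Cre mice than in every Vil-Cre:NDI1 mouse, with 6 of 6 detected and sums of 1127, 120.4, 419, 22.2 and 771 in Vil-Cre mice 1 to 5 and 11.8, 30.1, 70.7, 69.5 and 77.5 in Vil-Cre:NDI1 mice 1 to 5.

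The antioxidant genes did not separate the genotypes. All 31 passed the filter (10 or more normalized counts in 5 or more mice), and limma called 0 of 31 at an adjusted p under 0.05, beside 0.00699% of the 14301 genes tested, which is 1 gene, NDI1 itself. Their adjusted p values by limma lay between 0.998 and 0.999. At an unadjusted p under 0.05, 2 of 31 passed, beside 4.24% of all genes: Gclm, the modifier subunit of glutamate-cysteine ligase, was the 1 on the higher side (2.13% of all genes) and Gpx3, the secreted glutathione peroxidase, the 1 on the lower side (2.11%). In 0 of 31 genes did the values of the 2 groups fail to overlap, beside 0.699% of all genes. On recovered reads, DESeq2 also called 0 of 31 (0.183% of all genes) with 2 at an unadjusted p under 0.05 (4.81%), and edgeR called 0 (0.00699%) with 1 (4.66%).

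The size of the differences that these 10 mice allow can be read from the intervals. Fitted log2 fold changes (Vil-Cre:NDI1 minus Vil-Cre, on the log2(value + 1) scale, which understates the change of low genes) ran from -0.40 for Gpx3 to 0.33 for Gclc, the catalytic subunit of the same ligase. Their median was 0.015, beside 0.0052 for all genes tested, and 19 were above 0 and 12 below, where 51.2% of all genes were above 0. A 95% interval that stayed within 1.5-fold, higher or lower, was seen for 22 of 31 genes (53.5% of all genes) and one within 2-fold for 30 of 31 (79.6%). The exception was Hmox1, which had few reads. Txnrd1, Keap1 and Gpx1 were held to the narrowest ranges, with intervals of -0.19 to 0.11, -0.17 to 0.14 and -0.17 to 0.11. Between mice of 1 genotype these genes varied less than most, with a median residual SD of 0.20 on the log2 scale beside 0.292 for all genes tested, although 11 of 31 lay above that median. Counting error is larger in genes with fewer reads, and the genes tested were not matched to the 31 by level. The same limit holds for the shares of intervals within 1.5-fold and 2-fold.

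**Figure D1:**
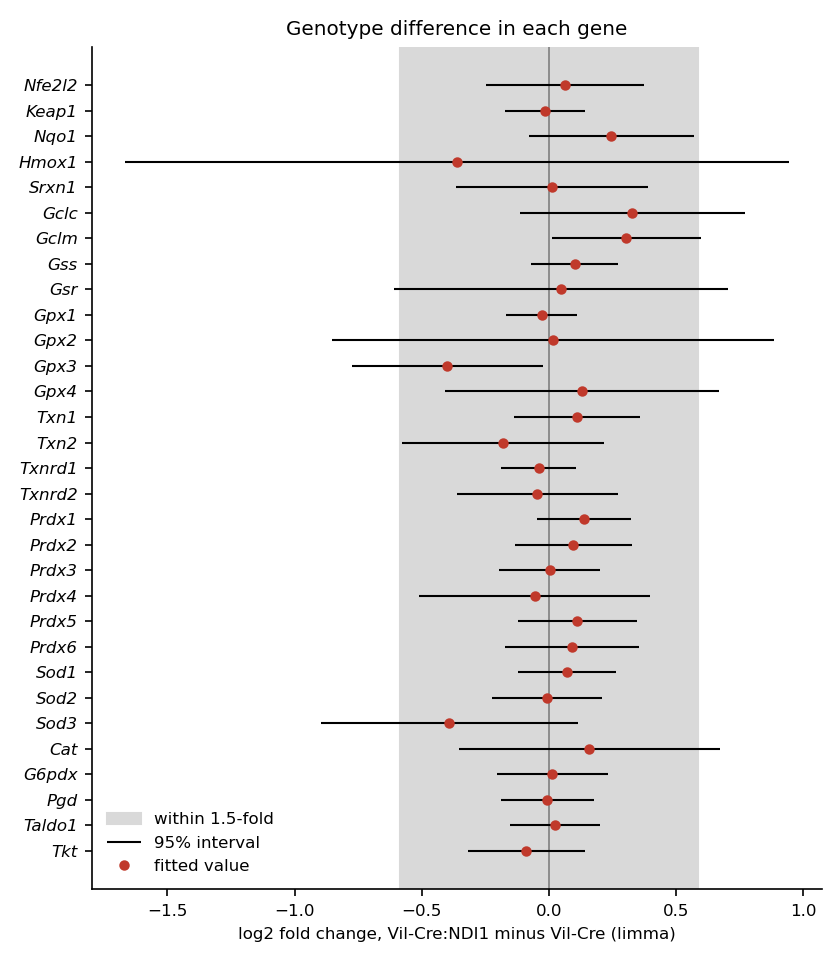
Fitted log2 fold change of each of the 31 genes (points) with its 95% interval from limma (lines), for 5 Vil-Cre:NDI1 against 5 Vil-Cre mice, with 0 marked and the range within 1.5-fold shaded. The intervals of Gclm and Gpx3 leave out 0 before adjustment, and the interval of Hmox1 is the widest.

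The count of 2 at an unadjusted p under 0.05 rested on single mice. It was 0 without Vil-Cre 1, Vil-Cre 5, Vil-Cre:NDI1 2 or Vil-Cre:NDI1 5, and it was 1 without Vil-Cre 2 (Gclc), Vil-Cre:NDI1 3 (Gpx3) or Vil-Cre:NDI1 4 (Gclm). Without Vil-Cre 4 it was 4 (Gclm, Gpx3, Nqo1 and Sod3), and without Vil-Cre:NDI1 1 it was 2 again but with Prdx1 in the place of Gclm. In Vil-Cre 3 and Vil-Cre 4 the value of 1 read lay close to 1 (1.00 and 1.01), and the tests on reads were repeated without this pair, a choice made after the data had been seen. A value near 1 is no fault of a library, and 100% of non-zero values were whole in both, as in the other libraries. The pair were also the controls with the highest Gclm (1628 and 1428), so leaving them out could only raise its fitted difference. Without this pair, DESeq2 gave 8 of 31 genes an unadjusted p under 0.05 (8.11% of all genes) and called 1 of 31 (1.77%), Gclm, with an adjusted p of 0.0217. By edgeR without the same libraries, 6 had an unadjusted p under 0.05 (8.67%), 0 were called (0.00718%) and Gclm had an adjusted p of 0.428.

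The levels of the genes spanned a wide range, with Txn1 the most abundant. Levels are compared between genes as normalized counts per kb of merged exons in the GENCODE M21 annotation, given as the mean ± SD over 10 mice. Txn1, the cytosolic thioredoxin, was highest at 7432 ± 899, and its lowest mouse was above the highest mouse of each other gene. Taldo1 (transaldolase) at 2026 ± 142, Prdx1 at 2026 ± 174, Gpx4 at 1778 ± 609 and Prdx5 at 1661 (from 1412 to 1991) came next, and these neighbours did not differ beyond their spread. At the other end were Hmox1 at 8.93 ± 6.93, Sod3 at 15.5 ± 4.43, Txnrd2 at 35.0 ± 4.91 and Prdx4 at 60.2 ± 12.1. Nfe2l2 stood at 454 ± 71.1 and Keap1 at 136 ± 6.38, in the middle and low part of the order.

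This order depended on the length used. With the longest principal transcript in place of merged exons, 20 of the 31 levels moved by more than their spread between mice. Sod1, the cytosolic superoxide dismutase, went from 949 ± 79.8 to 5875 per kb and from the 10th to the 2nd place, and Gpx2 from 968 ± 455 to 2922. Txn1 stayed first at 7432, and Prdx4, Txnrd2, Sod3 and Hmox1 kept the lowest 4 places. Which transcripts were made in these mice is not shown by counts per gene.

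**Figure D2:**
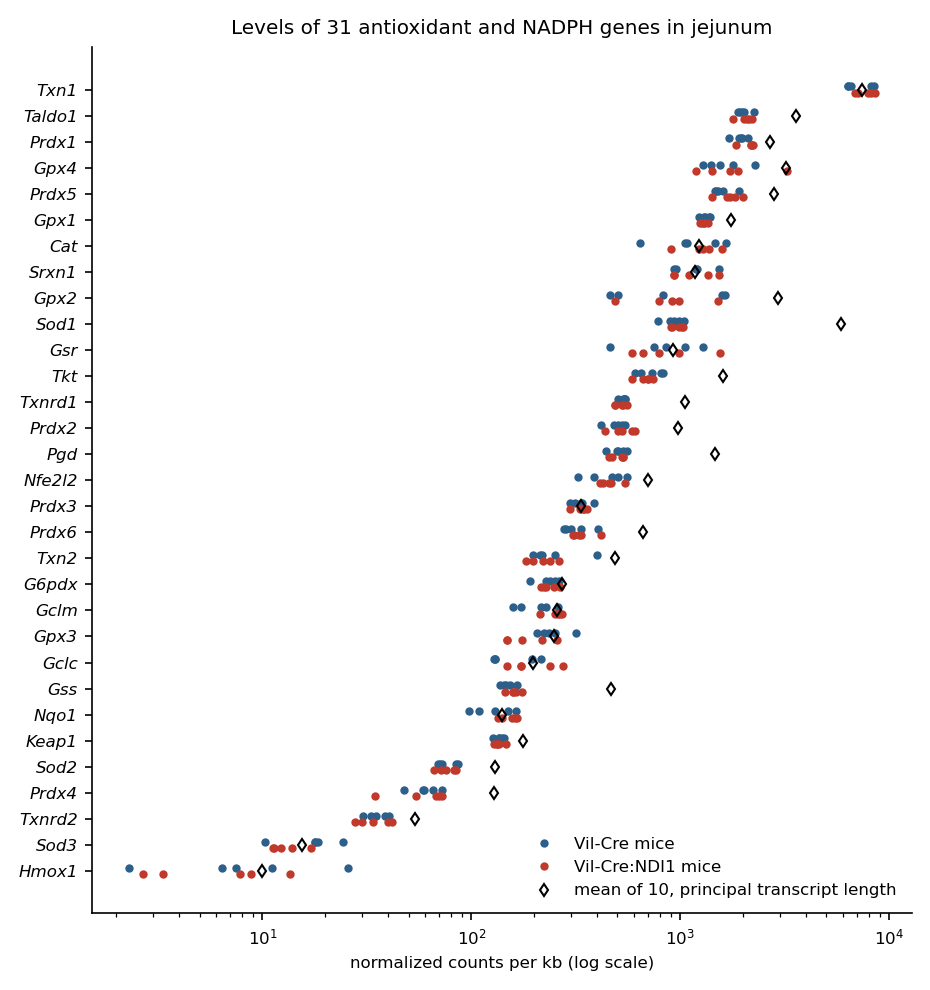
Normalized counts per kb of merged exons (log scale) of each gene in 5 Vil-Cre and 5 Vil-Cre:NDI1 mice (1 point per mouse), with the mean over 10 mice per kb of the longest principal transcript as an open diamond. Txn1 is highest by either length, and the points of the genotypes overlap in every gene.

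Nfe2l2 and Keap1, the regulator and its inhibitor, had values that overlapped between the genotypes. Nfe2l2 (ENSMUSG00000015839, chr2:75675513-75704641, minus strand, GRCm38) had normalized counts of 1778, 1465, 2097, 1919 and 1224 in Vil-Cre mice 1 to 5 and 1771, 1611, 1724, 1572 and 2069 in Vil-Cre:NDI1 mice 1 to 5. Vil-Cre 5 was lowest and Vil-Cre 3 highest, so the controls enclosed all 5 Vil-Cre:NDI1 mice, and the log2 fold change was 0.064 (95% interval -0.25 to 0.38). Keap1 (chr9:21229730-21239361) had 597 to 674 in controls and 603 to 690.1 in Vil-Cre:NDI1 mice. The log2 fold change of Keap1 was -0.015 (95% interval -0.17 to 0.14), and its residual SD was lower than that of all but 0.853% of the genes tested. Keap1 shares 510 exonic bases with an antisense gene, Gm16754, whose mean was 24.0 normalized counts.

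Among the classical target genes, Nqo1 and Srxn1 were well measured and Hmox1 was not. Nqo1, which encodes the quinone reductase often used as a readout of NRF2, had normalized counts of 202, 169, 231, 253 and 152 in Vil-Cre mice 1 to 5 and 257, 209, 242, 252 and 217 in Vil-Cre:NDI1 mice. The groups overlapped, because Vil-Cre 3 and Vil-Cre 4 lay among the Vil-Cre:NDI1 mice while Vil-Cre 1, 2 and 5 were lower than all of them. The means were 201 ± 42.2 and 235 ± 21.3 (SD, n = 5 mice each), with a log2 fold change of 0.25 (standard error 0.15, 95% interval -0.078 to 0.57) and p = 0.159 by a two-sided exact permutation test. Without Vil-Cre 5 the log2 fold change of Nqo1 was 0.15. Srxn1, sulfiredoxin, which restores over-oxidised peroxiredoxins, had 3349, 4294, 2685, 2619 and 3404 in Vil-Cre mice and 2629, 3099, 2639.5, 3843 and 4338 in Vil-Cre:NDI1 mice. The highest mouse was 1.66-fold above the lowest, and the log2 fold change was 0.012 (95% interval -0.37 to 0.39), a sign that turned after each library was rescaled to the same total of normalized counts.

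Hmox1, the inducible haem oxygenase, was the lowest of the genes, with 11.2, 13.1, 45.1, 4.04 and 19.4 normalized counts in Vil-Cre mice and 5.88, 23.7, 15.5, 13.7 and 4.70 in Vil-Cre:NDI1 mice. The values ran over 11.1-fold within 10 mice, and the 95% interval of the log2 fold change, -1.67 to 0.94, includes a 2-fold lower level. The coefficient of variation over 10 mice was 77.6%, beside 25.1% from counting alone at a mean of 15.9 reads. Hmox1 is high in macrophages that clear red cells. All 6 macrophage markers were detected. Their sums were 391, 479, 388, 619 and 492 in Vil-Cre mice 1 to 5. In Vil-Cre:NDI1 mice 1 to 5 they were 734, 259.7, 331, 407 and 265. Vil-Cre 3, with the highest Hmox1, had the lowest sum of the controls, and Vil-Cre 4, with the lowest Hmox1, had the highest. The part of macrophages in the Hmox1 values was not tested.

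**Figure D3:**
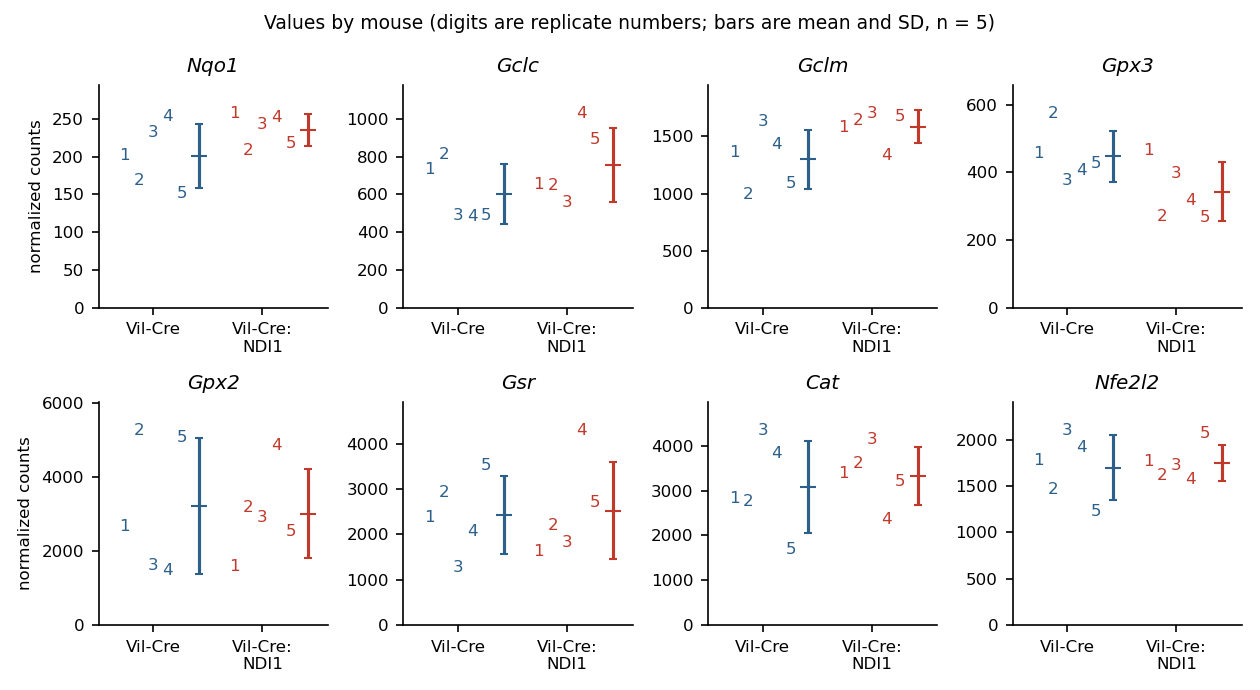
Normalized counts of 8 genes by mouse, with the digit giving the replicate number and the bar at the right of each group giving the mean and SD (n = 5), on axes that start at 0. Gclm and Nqo1 have a narrower range in Vil-Cre:NDI1 mice, and Gpx2, Gsr and Cat vary widely between mice of the same genotype.

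In the glutathione pathway, the 2 subunits of glutamate-cysteine ligase, which makes the first and limiting step, had the highest fitted log2 fold changes of the 31 genes. Gclm (ENSMUSG00000028124, chr3:122245557-122270732, plus strand, GRCm38) had normalized counts of 1361, 990.4, 1628, 1428 and 1087 in Vil-Cre mice 1 to 5 and 1577, 1635, 1699, 1337 and 1672 in Vil-Cre:NDI1 mice 1 to 5. Vil-Cre 2 and Vil-Cre 5 were the lowest mice, Vil-Cre 3 lay among the Vil-Cre:NDI1 mice, and Vil-Cre:NDI1 4 lay below 3 controls, so the groups overlapped. The means were 1299 ± 259 and 1584 ± 146, the log2 fold change was 0.30 (standard error 0.13, 95% interval 0.011 to 0.60), and the unadjusted p of 0.0433 became 0.998 after limma adjustment over all genes. The exact permutation test gave p = 0.0873. Gclm shares 296 exonic bases with Gm17494 on the other strand (mean 56.3 normalized counts), and the sources do not state that reads were counted by strand.

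Gclc (chr9:77754535-77794485) had 734, 811, 489, 482 and 490.5 in Vil-Cre mice and 652, 648, 558, 1028 and 891 in Vil-Cre:NDI1 mice. Its high mice were Vil-Cre:NDI1 4 and 5, followed by Vil-Cre 2 and 1, whereas Gclm was low in Vil-Cre 2 and in Vil-Cre:NDI1 4, so the subunits did not follow each other from mouse to mouse. The log2 fold change of Gclc was 0.33 (95% interval -0.12 to 0.77, exact permutation p = 0.183) and 0.21 without Vil-Cre:NDI1 4. Gss, glutathione synthetase, which adds glycine in the last step, stayed within 810.0 to 1028 over all mice with a log2 fold change of 0.10 (95% interval -0.070 to 0.27). It shares 395 exonic bases with Acss2 on the other strand, and its values are uncertain to that extent.

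Gsr, glutathione reductase, which returns oxidised glutathione to its reduced form with NADPH, was among the genes that differed most between mice of 1 genotype. Its normalized counts were 2362, 2911, 1263, 2067 and 3519 in Vil-Cre mice and 1624, 2187, 1816, 4279 and 2699.8 in Vil-Cre:NDI1 mice. Vil-Cre:NDI1 4 was 3.39 times Vil-Cre 3, yet the group means were 2424 ± 854 and 2521 ± 1065, with a log2 fold change of 0.048 (95% interval -0.61 to 0.71).

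The glutathione peroxidases held both the steadiest and some of the most variable genes. Gpx1, the cytosolic enzyme, had 1882, 1988, 1774, 1871 and 1966 in Vil-Cre mice and 1869, 1786, 1943, 1876 and 1819 in Vil-Cre:NDI1 mice. The highest mouse was 1.12-fold above the lowest, and only 0.301% of genes tested had a lower residual SD. Its log2 fold change was -0.028, with a 95% interval of -0.17 to 0.11. Gpx2 (chr12:76792333-76795554, minus strand), its gastrointestinal relative, had 2655, 5257, 1625, 1482 and 5085 in Vil-Cre mice and 1575, 3171, 2924, 4864 and 2537 in Vil-Cre:NDI1 mice. Vil-Cre 2, Vil-Cre 5 and Vil-Cre:NDI1 4 were the highest mice and Vil-Cre 3, Vil-Cre 4 and Vil-Cre:NDI1 1 were lowest, so each genotype held high and low mice over a range of 3.55-fold, and the log2 fold change was 0.015 (95% interval -0.85 to 0.88).

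Gpx3 (ENSMUSG00000018339, chr11:54902453-54910377, plus strand), which encodes the peroxidase of plasma and extracellular space, had normalized counts of 455, 573, 375, 405 and 426 in Vil-Cre mice 1 to 5 and 466, 269, 396, 317 and 268 in Vil-Cre:NDI1 mice 1 to 5. Vil-Cre:NDI1 2, 4 and 5 were below all controls, while Vil-Cre:NDI1 1 was above 4 of them. The means were 447 ± 76.5 and 343 ± 86.2, the log2 fold change was -0.40 (standard error 0.17, 95% interval -0.78 to -0.025), and the unadjusted limma p of 0.0387 was 0.998 after adjustment, with an exact permutation p of 0.0794. Gpx3 is made in tissues outside the epithelium, adipose tissue among them, and in whole jejunum fewer cells of a type and less RNA per cell cannot be told apart. Adipoq, the defining adipocyte marker, had 113, 164, 72.1, 1.01 and 7.77 in Vil-Cre mice and 0, 48.3, 66.8, 63.7 and 56.3 in Vil-Cre:NDI1 mice, being at 0 in Vil-Cre:NDI1 1. All 5 adipocyte markers were detected in the series, with sums of 1167 to 2460.1 and 1752 to 2392, and Lep was at 0 in 5 of 10 mice. Most of each sum was Cidec, at 922 to 1851 in Vil-Cre and 1208 to 1816 in Vil-Cre:NDI1 mice. In Vil-Cre:NDI1 1, Plin1 and Lep were at 0 like Adipoq, but Cidec was at 1494 and the sum at 1752. The sums therefore did not follow Adipoq. The part of the adipocyte markers, and that of the hepatocyte markers given above, in the values of Gpx3 was not tested.

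Gpx4, the peroxidase that reduces lipid hydroperoxides in membranes, had 2427, 2663, 3921, 2222 and 3085 in Vil-Cre mice and 2993, 3251, 2451, 2038 and 5603 in Vil-Cre:NDI1 mice. Vil-Cre:NDI1 5 was the highest of the 10, and without it the log2 fold change of 0.13 (95% interval -0.41 to 0.67) became -0.087. Of the summed level of the 4 peroxidases per kb, Gpx4 made up 39.6% ± 8.47 in Vil-Cre and 42.9% ± 11.7 in Vil-Cre:NDI1 mice, Gpx1 31.8% ± 5.17 and 30.5% ± 4.68, and Gpx2 22.6% ± 9.87 and 22.0% ± 9.27. These shares use merged exons, and by principal transcript length Gpx2 (2922 per kb) lay above Gpx1 (1751).

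In the thioredoxin system the cytosolic members were above the mitochondrial ones per kb in every mouse, by 7432 ± 899 against 238 ± 62.4 for thioredoxin and 524 ± 24.1 against 35.0 ± 4.91 for the reductase. Txn1 had 6851, 6628, 8887, 8617 and 6677 in Vil-Cre mice and 8947, 8301, 8572, 7213 and 7413 in Vil-Cre:NDI1 mice, with a log2 fold change of 0.11 (95% interval -0.14 to 0.36). Txn2, its mitochondrial counterpart, had 899.9, 832, 1688, 915 and 1056 in Vil-Cre mice and 999.8, 1102, 928, 831 and 769 in Vil-Cre:NDI1 mice. Vil-Cre 3 was 2.20-fold above the lowest mouse, and without it the log2 fold change of Txn2 went from -0.18 (95% interval -0.58 to 0.22) to -0.0057. Txnrd1, the cytosolic NADPH-dependent reductase of thioredoxin, varied over 1.14-fold in all 10 mice, from 3548 to 3865 in Vil-Cre and 3444 to 3926 in Vil-Cre:NDI1 mice, and had a log2 fold change of -0.040 (95% interval -0.19 to 0.11). Txnrd2, the mitochondrial reductase, lay at 133 to 177 and 122 to 183, with a log2 fold change of -0.045 (95% interval -0.36 to 0.27).

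The 6 peroxiredoxins, which reduce peroxides with electrons from thioredoxin or, for Prdx6, from glutathione, all had 95% intervals within 1.5-fold. Prdx1, the main cytosolic member, had 5979.5, 6406, 5906, 5223 and 5824 in Vil-Cre mice and 5608, 6589.9, 6761, 6660.3 and 6697 in Vil-Cre:NDI1 mice. The 4 Vil-Cre:NDI1 mice numbered 2 to 5 were above every control, but Vil-Cre:NDI1 1 was below all controls except Vil-Cre 4, so the groups overlapped. The means were 5868 ± 425 and 6463 ± 482, with a log2 fold change of 0.14 (standard error 0.084, 95% interval -0.045 to 0.32) and an exact permutation p of 0.103. Prdx3, the mitochondrial member, stayed within 439.8 to 570.2 in Vil-Cre and 437 to 526 in Vil-Cre:NDI1 mice, with a log2 fold change of 0.0031 (95% interval -0.20 to 0.20).

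Prdx5, which is found in mitochondria, peroxisomes and cytosol, lay at 3139.8 to 4089.5 in Vil-Cre and 3020.2 to 4259.8 in Vil-Cre:NDI1 mice (log2 fold change 0.11, 95% interval -0.12 to 0.35). Prdx6 had 1338 to 1930.2 and 1471 to 1996 (log2 fold change 0.091, 95% interval -0.17 to 0.35). Prdx4, the member of the endoplasmic reticulum, was the least abundant of the 6 per kb and was lowest in Vil-Cre:NDI1 5, at 72.8 normalized counts beside 101 to 152 in the other mice, with a log2 fold change of -0.056 (95% interval -0.51 to 0.40). Prdx2, which is very abundant in red cells, had 1276 to 1658 in Vil-Cre and 1334 to 1843 in Vil-Cre:NDI1 mice, with a log2 fold change of 0.096 (95% interval -0.13 to 0.33). All 5 erythroid markers were detected, with sums of 207 to 492 in Vil-Cre and 318 to 1369 in Vil-Cre:NDI1 mice, and Hba-a1 at 39.8 to 132 and 71.6 to 315. Vil-Cre:NDI1 4 had the highest sum (1369) and the lowest Prdx2 of its group (1334). Vil-Cre:NDI1 3 had the lowest sum of that group (318) and its highest Prdx2 (1843). Among controls, Vil-Cre 5 was lowest in both (207 and 1276). The part of red cells in the Prdx2 values was not tested. Prdx2 also shares exonic bases with Junb (173) and Rnaseh2a (177) on the other strand, as Prdx5 does with Trmt112 (409). Per kb, Prdx1 and Prdx5 together made up most of the family's level, with shares of 40.8% ± 2.91 and 33.7% ± 2.51 in Vil-Cre mice and 41.6% ± 2.95 and 33.7% ± 2.95 in Vil-Cre:NDI1 mice. By principal transcript length the order of this pair turned, with Prdx5 at 2815 per kb and Prdx1 at 2688.

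Of the superoxide dismutases, Sod1 and the mitochondrial Sod2, which acts on superoxide from the respiratory chain, had 95% intervals within 1.5-fold, and Sod3 did not. Sod1 lay at 3101 to 4132 in Vil-Cre and 3582 to 4087 in Vil-Cre:NDI1 mice, with a log2 fold change of 0.071 (95% interval -0.12 to 0.26). Sod2 had 706, 720.1, 843, 864 and 691 in Vil-Cre mice and 824, 757, 847, 660.1 and 718 in Vil-Cre:NDI1 mice, and its log2 fold change was -0.0054 with a 95% interval of -0.22 to 0.21. As a ratio, that interval was 0.857 to 1.16. Sod3, the secreted enzyme, had 66.3, 66.8, 69.1, 38.4 and 91.3 in Vil-Cre mice and 46.1, 41.9, 42.6, 63.7 and 51.6 in Vil-Cre:NDI1 mice. Vil-Cre 4 held the lowest Sod3 of all mice, whereas the other 4 controls were above every Vil-Cre:NDI1 mouse, and the log2 fold change was -0.39 (standard error 0.23, 95% interval -0.90 to 0.11, exact permutation p = 0.143). Sod3 is made largely by smooth muscle and other stromal cells. All 5 smooth muscle markers were detected, and their sum was also lowest in Vil-Cre 4, at 11290. The other controls had 19986 to 24229 and the Vil-Cre:NDI1 mice 13047 to 23809.6. Vil-Cre 5, highest in Sod3, had a sum of 19986, the lowest of these other controls. Vil-Cre:NDI1 5, with the highest sum of its group, had a Sod3 of 51.6. The part of smooth muscle in the Sod3 values was not tested.

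Catalase (Cat), the peroxisomal enzyme that splits hydrogen peroxide without NADPH, had 2815, 2757, 4333, 3836 and 1680.2 in Vil-Cre mice and 3371, 3599, 4132, 2354 and 3194 in Vil-Cre:NDI1 mice. Vil-Cre 5 was lowest and Vil-Cre 3 highest, 2.58-fold apart, and all Vil-Cre:NDI1 mice lay between them. The log2 fold change was 0.16 (95% interval -0.36 to 0.67), and without Vil-Cre 5, the mouse with the lowest enterocyte markers, it was -0.041. The share of the enterocyte markers in that difference was not tested.

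The pentose phosphate genes were the steadiest group, with the highest mouse of each gene at most 1.41-fold above the lowest. G6pdx, glucose-6-phosphate dehydrogenase, the entry enzyme that makes NADPH, had 699.9, 729, 590.1, 773 and 811 in Vil-Cre mice and 687, 767, 697, 815 and 662 in Vil-Cre:NDI1 mice, with a log2 fold change of 0.014 (95% interval -0.21 to 0.23). Pgd, phosphogluconate dehydrogenase, the other NADPH-producing step, lay at 2836 to 3568 and 2949 to 3444, with a log2 fold change of -0.0057 (95% interval -0.19 to 0.18). Taldo1 and Tkt, the enzymes that return pentoses to glycolysis, had log2 fold changes of 0.025 (95% interval -0.15 to 0.20) and -0.088 (95% interval -0.32 to 0.14). All 4 intervals lay within 1.5-fold. G6pdx shares 418 exonic bases with Ikbkg on the other strand, and its retrocopy G6pd2 had a mean of 0.395 normalized counts.

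Several genes varied widely between mice of 1 genotype, and they did so in opposite directions in different genes. This pattern was picked out after the values had been seen and is given as a description. Gpx2, Gsr and Srxn1 were above their own mean in Vil-Cre 2, Vil-Cre 5 and Vil-Cre:NDI1 4 and below it in Vil-Cre 3, Vil-Cre 4 and Vil-Cre:NDI1 1. On the log2 scale, Gpx2 deviated by 0.90, 0.85 and 0.79 in the first 3 mice and by -0.79, -0.92 and -0.84 in the others. Gpx1 and Prdx3 had the signs of Gpx2 in these 6 mice, by smaller amounts. Some of these were near 0, such as 7.7e-05 for Gpx1 in Vil-Cre:NDI1 4 and -0.0036 for Prdx3 in Vil-Cre:NDI1 1. Such amounts lie well within counting error (coefficients of variation of 2.31% and 4.49%), so those signs carry little information. Cat, Nfe2l2, Txn1, Sod2 and Gclm had the reverse signs in the same mice. Cat was at -0.17, -0.88 and -0.40 and then 0.48, 0.31 and 0.12. Gclm was at -0.52, -0.39 and -0.087 and then 0.20, 0.0076 and 0.15. Of these 6 mice, 4 were Vil-Cre and 2 were Vil-Cre:NDI1, with both genotypes on either side.

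Paneth cell markers moved with Gpx2 and Gsr in part. The 5 of 6 markers in the table were all detected, and their sums were 111071, 121947, 70372, 34577 and 98017 in Vil-Cre mice and 66879, 83002, 73816, 127068 and 39697 in Vil-Cre:NDI1 mice. The highest sums were in Vil-Cre:NDI1 4 and Vil-Cre 2, where Gpx2 and Gsr were high, and the lowest was in Vil-Cre 4, where Gpx2 was lowest. Lyz1, the lysozyme of Paneth cells, had 38225, 35522, 12972, 12975 and 24205 and 21072, 21331, 16212, 56443 and 13690.2. Vil-Cre 1 had the third highest Paneth sum with Gpx2 near the middle. Vil-Cre:NDI1 5 had the lowest sum of its group (39697), yet its Gsr lay above the mean of the gene (log2 deviation 0.21). Its Gpx2 lay near the mean (-0.15). Gsr was lowest in Vil-Cre 3 (1263), not in Vil-Cre 4. The part of cell composition in these values was not tested. Single markers of other cells, picked out after their values had been seen, also ran with the pattern. Clca1 of goblet cells was at 25300.1, 25881 and 16486 in Vil-Cre 2, Vil-Cre 5 and Vil-Cre:NDI1 4 and at 14645, 8911 and 8036 in Vil-Cre 3, Vil-Cre 4 and Vil-Cre:NDI1 1, as Gpx2 was. Lct, the lactase of enterocytes, followed Cat, at 16925, 6088 and 13478 and then 31347, 28829 and 28023. Not all markers of these lists did so. Fabp2 of enterocytes ran as Gpx2 did, at 70499.6, 56618 and 102522 and then 42295, 45613 and 41059.6. Fcgbp of goblet cells did not follow Gpx2, at 41482, 39144 and 35638 and then 41057, 41935 and 37541.

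**Figure D4:**
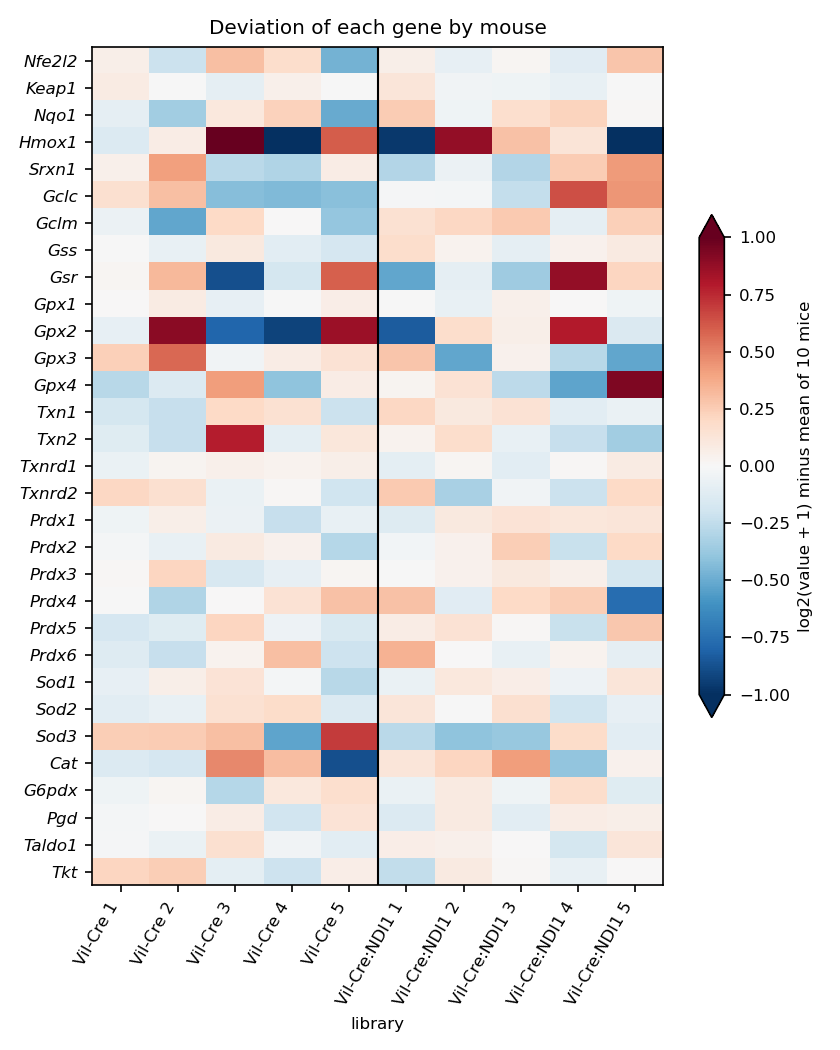
Deviation of log2(normalized count + 1) from the mean over 10 mice for each gene (rows, ordered by role) and library (columns, Vil-Cre at the left of the line), with the colour scale ending at -1 and 1, which Hmox1 exceeds in 3 mice. Gpx2 and Gsr are red and Cat is blue in Vil-Cre 2, Vil-Cre 5 and Vil-Cre:NDI1 4, and no row separates the genotypes.

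Ratios between related genes do not depend on the size factor of a library, and 6 were compared. The mitochondrial members Txn2, Prdx3 and Sod2 were set against their cytosolic counterparts Txn1, Prdx1 and Sod1. Txn2 over Txn1 was 0.131, 0.125, 0.190, 0.106 and 0.158 in Vil-Cre mice 1 to 5 and 0.112, 0.133, 0.108, 0.115 and 0.104 in Vil-Cre:NDI1 mice 1 to 5. The values overlapped, and the difference in mean log2 ratio was -0.29 (exact permutation p = 0.111, 0.452 adjusted over the 6 ratios), or -0.18 without Vil-Cre 3. Prdx3 over Prdx1 was 0.0842 ± 0.00597 in Vil-Cre and 0.0768 ± 0.00793 in Vil-Cre:NDI1 mice, a log2 difference of -0.14 (exact permutation p = 0.151, adjusted 0.452), and Sod2 over Sod1 was 0.209 ± 0.0195 and 0.198 ± 0.0236 (log2 difference -0.077, exact permutation p = 0.429, adjusted 0.857). All 3 mitochondrial ratios were fitted lower in Vil-Cre:NDI1 mice and 0 of 3 passed the test. Prdx3 and Sod2 alone had log2 fold changes of 0.0031 and -0.0054, and their cytosolic counterparts Prdx1 and Sod1 of 0.14 and 0.071. Txnrd1 over Txnrd2 was 24.5 ± 3.49 and 24.7 ± 4.84, Gpx2 over Gpx1 1.67 ± 0.894 and 1.62 ± 0.640, and Gclc over Gclm 0.490 ± 0.207 and 0.488 ± 0.174, each with an adjusted exact permutation p of 0.976.

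Pairs of genes that share an enzyme, a cycle or a regulator were also compared across the 10 mice, and 0 of 6 pairs passed after adjustment. Nfe2l2 and Nqo1 had the closest relation, with a Pearson r of 0.696 (permutation p = 0.0256, adjusted over 6 pairs 0.154) and a Spearman rho of 0.430 (permutation p = 0.218, adjusted 0.654). Without Vil-Cre 3 and Vil-Cre 5, the mice farthest from the median of Nfe2l2, r was 0.423 (permutation p = 0.296). Leaving out single mice, r was 0.406 without Vil-Cre 5 and 0.715 without Vil-Cre 3, so the relation rested on Vil-Cre 5. For Txnrd1 and Srxn1, both classical NRF2 targets, r was 0.489 (permutation p = 0.152, adjusted 0.457) and rho was 0.430 (permutation p = 0.216, adjusted 0.654), and r was 0.108 without Vil-Cre:NDI1 1 and Vil-Cre:NDI1 3. The subunits Gclc and Gclm had an r of -0.12 (permutation p = 0.740, adjusted 0.839) and a rho of -0.176 (permutation p = 0.634, adjusted 0.760), and r was -0.306 without Vil-Cre:NDI1 4 and Vil-Cre:NDI1 5. With each gene centred on its genotype means, r was 0.731 for Nfe2l2 and Nqo1 (permutation, adjusted p = 0.0979), 0.523 for Txnrd1 and Srxn1 (0.247) and -0.539 for Gclc and Gclm (0.247). All genes of a library share its size factor, and after rescaling to the same total these values without centring were 0.605, 0.340 and -0.356.

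The remaining pairs came from the pentose phosphate pathway and from mitochondria. G6pdx and Pgd had an r of 0.0749 (permutation p = 0.839, adjusted 0.839) and a rho of 0.200 (permutation p = 0.586, adjusted 0.760), with r at 0.264 without Vil-Cre 3 and Vil-Cre:NDI1 4. Taldo1 and Tkt had an r of -0.231 (permutation p = 0.519, adjusted 0.779) and a rho of -0.321 (permutation p = 0.369, adjusted 0.739), with r at -0.356 without Vil-Cre 3 and Vil-Cre:NDI1 4. Prdx3 and Txn2 had an r of -0.359 (permutation p = 0.307, adjusted 0.614) and a rho of -0.0909 (permutation p = 0.814, adjusted 0.814), with r at -0.704 (permutation p = 0.0677) without Vil-Cre 2 and Vil-Cre:NDI1 5. Rescaling moved these r to 0.401, -0.0998 and -0.0378, and centring on genotype means gave 0.0764, -0.205 and -0.372.

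**Figure D5:**
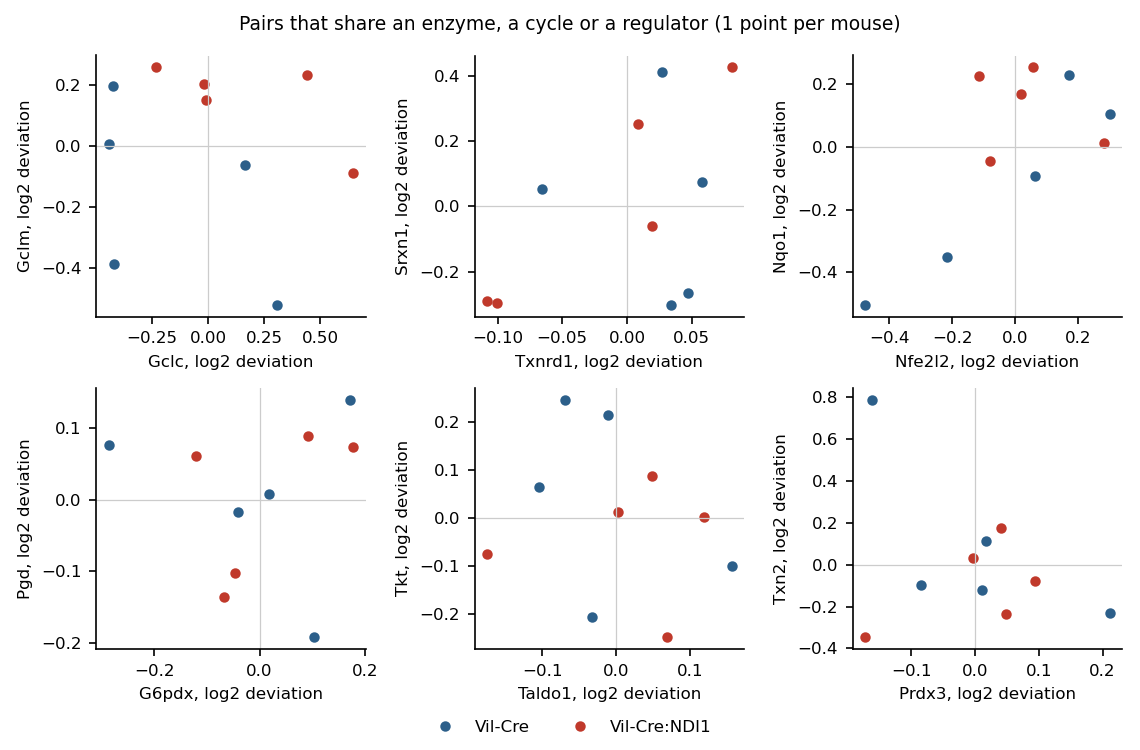
Deviation from the mean over 10 mice of log2(normalized count + 1) for 6 pairs of genes, 1 point per mouse, blue for Vil-Cre and red for Vil-Cre:NDI1. Nfe2l2 and Nqo1 are both lowest in Vil-Cre 5, and Gclc and Gclm show no common direction.

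Other genes of the same pathways were taken from 5 lists with 76 genes, of which 72 passed the filter. By limma 0 of 72 were called (0.00699% of all genes tested), with 5 higher (2.13%) and 2 lower (2.11%) at an unadjusted p under 0.05, and their median log2 fold change was 0.029. The 3 genes with the smallest p of each list are named, all with an adjusted limma p of 0.998. Of 16 other NADPH sources, Idh1, cytosolic isocitrate dehydrogenase, had 2398 ± 638 normalized counts in Vil-Cre and 3202 ± 344 in Vil-Cre:NDI1 mice (log2 fold change 0.46, 95% interval 0.053 to 0.87). Me1, cytosolic malic enzyme, had 809 ± 276 and 480.2 ± 159 (log2 fold change -0.73, 95% interval -1.46 to -0.0074), and Me2, the mitochondrial one, had 6586 ± 759 and 7716 ± 894 (0.23, 95% interval -0.011 to 0.47). Idh1 and Me1 thus lay on opposite sides, and the values of both overlapped between groups.

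Among 18 tested further NRF2 targets, Ephx1, microsomal epoxide hydrolase, had a mean of 108 normalized counts in Vil-Cre (84.9 to 130.2) and 82.5 in Vil-Cre:NDI1 mice (70.4 to 98.0), a log2 fold change of -0.37, the aldo-keto reductase Akr1b8 53.6 ± 9.01 and 75.5 ± 22.9 (0.45), and the glutathione transferase Gsta1 830.1 ± 528 and 1169 ± 223 (0.69, 95% interval -0.093 to 1.48). These NRF2 targets had both signs, and the median over the 18 was 0.068. Among 10 partners of NRF2, its relative Nfe2l1 had a log2 fold change of -0.20, the ligase scaffold Cul3 -0.17 and the repressor Bach1 0.26, with 0 of 10 at an unadjusted p under 0.05. Of 20 other thiol enzymes, 2 were higher at that level (2.13% of all genes), Chac2, which degrades glutathione (log2 fold change 0.42), and Ggt1, which takes glutathione apart outside the cell (0.31), and the glutaredoxin Glrx was at 0.17. Of 8 tested oxidant-producing enzymes, the monoamine oxidases Maob (0.43) and Maoa (0.27) were higher at that level (2.13%), and Aox1, aldehyde oxidase, was at 0.53 with a 95% interval of -0.26 to 1.31.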

How the data were processed

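RNA from flushed jejunum was sequenced single-end for 100 cycles. Per the methods, reads were trimmed, aligned by STAR to GRCm38 (the build in the submitters' processing notes) with NDI1 added, and quantified per gene by Salmon. The deposited signal is a normalized count, which the authors made by dividing reads by a DESeq2 size factor for each library. Strandedness of counting was not given in the sources used here. Reads were recovered as whole multiples of each library's smallest value (100% of non-zero values within 0.02 of a whole number), from 10145705 to 12371530 per library. Counting error alone gives a coefficient of variation from 1.13% (Txn1) to 25.1% (Hmox1). Genotypes came from the labels. The main test was limma 3.58.1 (R 4.3.3), fitted to log2 of the value plus 1, using eBayes with a trend in the variance. It covered 14301 genes with 10 or more normalized counts in 5 or more mice, adjusted by Benjamini-Hochberg at 0.05. Single genes and ratios were also compared by two-sided exact permutation of 5 against 5 (smallest p 0.00794), and correlations by 100000 permutations (Python 3.11.15, scipy 1.17.1). On recovered reads, DESeq2 1.42.0 (size factors of the authors) and edgeR 4.0.16 (TMM) were alternatives, beside other pseudocounts, filters and scaling, a replicate block and leaving out each mouse; tests without Vil-Cre 3 and Vil-Cre 4, and levels by principal transcript, were added after the data had been seen. The limma fit was tested on simulated data. Start-site windows came from RefSeq (GRCm38.p6), and lengths and positions from GENCODE M21 (GRCm38). All 31 genes are reported, and 3 genes of each pathway list by smallest p. The 31 genes and all lists were chosen with earlier results of these data known.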

Additional observations from a re-analysis of the deposited data

Results flagged for a closer look

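Of 74 groups of 5 values checked for a mouse far from the other 4, 4 had one, where chance gives about 3.7 (1 in 20). Txn2 had 1688 normalized counts in Vil-Cre 3, beside 832 to 1056 in the other Vil-Cre mice. Txnrd1 had 3548 in Vil-Cre 1, beside 3782 to 3865 in the others. Prdx1 had 5608 in Vil-Cre:NDI1 1, beside 6590 to 6761 in the rest of that group. Prdx6 had 1996 in Vil-Cre:NDI1 1, beside 1471 to 1609. Prdx1 and Prdx6 thus stood apart in the same mouse, in opposite directions.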

How the results depend on the processing

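The number of genes called was 0 with each alternative except DESeq2 without Vil-Cre 3 and Vil-Cre 4, which called 1. That gene was Gclm, for which these mice were the highest controls. The number at an unadjusted p under 0.05 was 2 with limma, 1 after rescaling to the same total, 1 with edgeR, 8 and 6 with DESeq2 and edgeR without Vil-Cre 3 and Vil-Cre 4, and 0 to 4 with each mouse left out. With a replicate block in the limma fit it was 0. Replicate numbers did not pair the mice (correlations of deviations from -0.116 to 0.136 over 5 numbers), so this is no paired result. Rescaling moved the median of all genes from 0.0052 to -0.057 and that of the 31 genes to -0.048. Over the alternatives run for single genes, which leave out the tests without Vil-Cre 3 and Vil-Cre 4, 16 of 31 genes kept their sign and 15 changed it, each with an interval that held 0. After rescaling, log2 fold changes were -0.051 (Srxn1), -0.015 (Gsr), -0.048 (Gpx2), -0.059 (Prdx3), -0.049 (G6pdx) and -0.038 (Taldo1). Gpx2 was -0.096 with DESeq2 and -0.11 with edgeR, where Prdx3 was -0.010 and G6pdx -0.0013. With each mouse left out, the ranges of log2 fold change were -0.048 to 0.15 for Nfe2l2, -0.046 to 0.0044 for Keap1, -0.76 to 0.039 for Hmox1, -0.093 to 0.12 for Srxn1, -0.17 to 0.20 for Gsr, -0.21 to 0.24 for Gpx2, -0.087 to 0.28 for Gpx4, -0.12 to 0.030 for Txnrd2, -0.037 to 0.056 for Prdx3, -0.14 to 0.13 for Prdx4, -0.045 to 0.045 for Sod2, -0.041 to 0.30 for Cat, -0.056 to 0.059 for G6pdx, -0.054 to 0.028 for Pgd, -0.0019 to 0.072 for Taldo1. Differences in log2 ratio then ran from -0.18 to 0.26 for Gpx2 over Gpx1, -0.16 to 0.23 for Gclc over Gclm, -0.080 to 0.096 for Txnrd1 over Txnrd2, and Pearson r from -0.39 to 0.096 for Gclc and Gclm, -0.14 to 0.36 for G6pdx and Pgd, -0.71 to 0.15 for Prdx3 and Txn2. Of the genes that kept their sign, Nqo1 ran from 0.15 to 0.33 and Gclc from 0.21 to 0.45. For Keap1, counting alone gives a coefficient of variation of 3.96%, beside 4.70% observed.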
